A study of Mus musculus with 6 samples.

Results

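The genes described here mark the pituitary cells that make pro-opiomelanocortin: Pomc itself, the factors Tbx19, Neurod1 and Pax7, the receptors Crhr1 and Avpr1b, the prohormone convertase gene Pcsk2 and the acyltransferase gene Oacyl. They were taken as all non-control probes whose RefSeq accession belongs to 1 of these 8 genes, which gave 11 of the 55681 probes on the array, with 3 genes (Crhr1, Neurod1 and Pcsk2) read by 2 probes each. Whole pituitaries came from 3 virgin female mice without Jmjd2a (Jmjd2a-/-, KO) and 3 wild-type littermates (Jmjd2a+/+, WT), all 8 weeks old and of C57BL6 background by their labels. Jmjd2a, now called Kdm4a, encodes a demethylase of histone H3 lysines. Every female of both groups had been exposed to soiled bedding of a stud male, which activates the oestrous cycle (the Whitten effect), and glands were collected 24 h later. Each array carried Cy3-labelled RNA of 1 animal. Which part of the gene was removed, and in which tissues, is stated neither in the labels nor in the files.

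In the mouse pituitary the prohormone POMC is made by corticotropes of the anterior lobe, which cut it to ACTH, and by melanotropes of the intermediate lobe, which cut it further to alpha-MSH and beta-endorphin. Tbx19 (Tpit) switches on Pomc in both cell types, Neurod1 acts with it in corticotropes, and Pax7 sets the melanotrope fate. Corticotropes are driven by corticotropin-releasing hormone (CRH) through Crhr1 and by vasopressin through Avpr1b, while melanotropes are held back by dopamine through Drd2.

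The start of Pomc is shown because it is the gene these cells are named for, and that of Crhr1 because both probes of that receptor gene gave lower values in KO. Both are windows of 250 bases before and 50 after the transcription start, from RefSeq with build GRCm38.p6, at chr12:3954695-3954994 (+ strand) for Pomc and chr11:104132531-104132830 (+ strand) for Crhr1. Capitals mark the motifs listed next.
Pomc: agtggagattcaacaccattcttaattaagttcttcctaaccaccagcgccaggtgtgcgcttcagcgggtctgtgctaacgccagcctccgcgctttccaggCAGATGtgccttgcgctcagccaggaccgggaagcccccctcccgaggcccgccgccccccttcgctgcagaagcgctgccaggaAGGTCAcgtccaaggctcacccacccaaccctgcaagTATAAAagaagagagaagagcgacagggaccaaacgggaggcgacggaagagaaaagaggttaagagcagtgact
Crhr1: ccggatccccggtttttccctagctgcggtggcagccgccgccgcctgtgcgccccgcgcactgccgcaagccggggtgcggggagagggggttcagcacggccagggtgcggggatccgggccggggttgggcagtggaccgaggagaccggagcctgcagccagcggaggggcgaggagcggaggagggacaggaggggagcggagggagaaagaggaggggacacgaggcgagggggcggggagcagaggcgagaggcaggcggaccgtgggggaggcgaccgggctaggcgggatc
Short motifs were searched on both strands of all 32851 RefSeq windows of this length. The TATA box TATAAA lay 25 bases before the Pomc start site and was found in 13.6% of all windows. The nuclear receptor motif AGGTCA lay 62 bases before it (16.3% of windows), and the E-box CAGATG 147 bases before it (17.2%). The 3 matches did not overlap. A T-box motif, TCACACC (3.98% of windows), and a Pitx motif, TAATCC (7.06%), were in none of the members' windows. The Crhr1 window held none of these, nor the CRE motif TGACG (20.8% of windows). It is 75% G and C against 59% for Pomc and a median of 52.7% over all windows. The table holds 6 of the 8 members, and among the other four (Tbx19, Neurod1, Pax7 and Pcsk2) the search found 1 match, the CRE motif in Pcsk2. These matches describe letters and not bound sites, and bases outside the windows were not searched.

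Every value below is a log2 level, the log2 spot signal less the log2 of that array's 75th percentile, so that a level of 0 means a spot as bright as that percentile. Levels of different probes are not set against each other, and are added up only for marker lists. The 6 arrays lay on 1 slide read in 1 scan, and their 75th percentile ran from 171 to 313 intensity units, with 34634 to 40567 probes well above background. All 11 member probes passed the filter of at least 3 arrays well above background, 10 of them on all 6 arrays and a dim probe of Neurod1 on 4, and no spot of theirs was saturated. The targeted gene read 2.14, 1.90 and 1.85 in WT and 1.45, 1.20 and 1.36 in KO by its brighter probe, a lower but measurable signal (log2 fold change -0.62 ± 0.14 (SE), adjusted p = 0.237 by limma). Its other probe was well above background on 2 arrays only and missed the filter. That probe read -4.95, -5.82 and -4.42 in WT and -4.62, -4.84 and -5.43 in KO (exact permutation p = 0.9). As the deleted part is not known, these values do not check the labels. The number of arrays limits the precision of every value, and p-values rest on 3 animals per group.

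The 8 members did not all differ alike. The 2 receptor genes read lower in all 3 KO glands than in any WT gland, while Pomc, the 3 transcription factor genes, Pcsk2 and Oacyl overlapped between the groups. By limma with Benjamini-Hochberg adjustment over all 26886 genes and features tested, 0 members passed an adjusted p under 0.05, as did 0 of all (percent called 0). At an unadjusted p under 0.05 limma gave 2 of 8 members, both lower in KO, against a background of 12.8% of all genes and features in either direction and 8.93% lower. No overlap with KO below WT was met by 2 of 8 members against 13.5% of all, and KO above WT by 0 against 7.14%, so that 2 of 8 did not overlap in either direction against 20.6% of all. The direction of the background depended on the scaling: 69.7% of all calls at that threshold were lower in KO as reported, 42.9% with quantile normalization, 24.8% with median centring and 46.8% in the authors' value table. The median log2 fold change was -0.19 over the 8 members and -0.076 over all genes and features. With so few members these shares do not set the group apart from other genes.

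**Figure D1:**
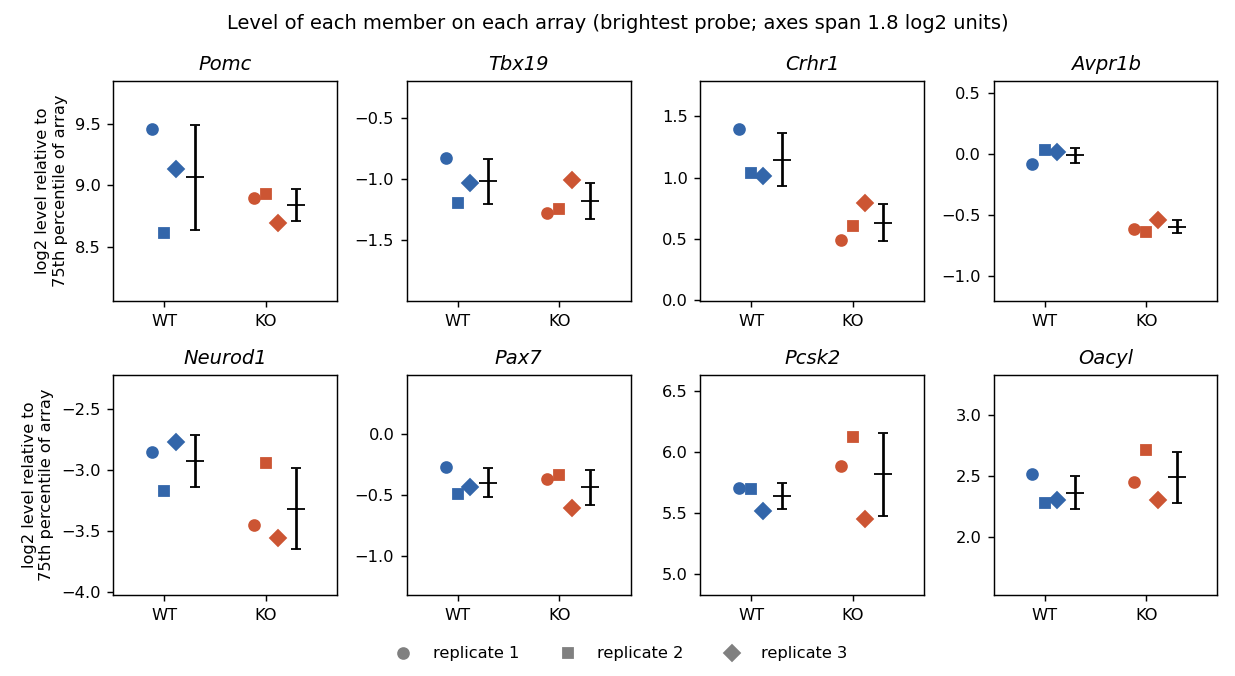
Log2 level of each member by its brightest probe (y axis, relative to the array's 75th percentile) for 3 WT (blue) and 3 KO (red) arrays, with marker shape for replicate number and black bars for mean ± SD; each panel has its own centre and the same span. Avpr1b and Crhr1 have all KO points below all WT points, and the other 6 panels overlap.

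Avpr1b, the vasopressin V1b receptor through which vasopressin raises ACTH release, showed the tightest separation. Its levels (probe A_66_P121039) were -0.081, 0.031 and 0.015 in WT and -0.61, -0.64 and -0.54 in KO. The 3 WT arrays lay close together near the array's 75th percentile, and the 3 KO arrays lay close together below them. The means were -0.012 ± 0.061 (SD, n = 3) and -0.60 ± 0.053 (SD, n = 3), so the KO signal was 66.7% of the WT signal (95% interval 55.5% to 80.2%, limma). The log2 difference of -0.58 ± 0.11 (SE) was larger than the spread within either group. Limma gave p = 0.00129, rank 153 among all genes and features, and an adjusted p of 0.226, while exact permutation (two-sided) gave p = 0.1, the lowest value possible with 3 arrays a group. The direction was the same and the unadjusted p stayed under 0.05 in 18 of 18 alternative settings (-0.62 to -0.42). Relative to the median of all genes and features, which median centring moved by 0.16, Avpr1b lay at -0.51 as reported and from -0.58 to -0.40 under the other 4 scalings.

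Crhr1, the CRH receptor that couples the hypothalamic signal to cyclic AMP, was read lower by both of its probes. The brighter (A_51_P229163) gave 1.40, 1.04 and 1.01 in WT and 0.49, 0.61 and 0.79 in KO. WT replicate 1 stood above the other two WT arrays, and the highest KO array was still below the lowest WT array. The means were 1.15 ± 0.22 (SD, n = 3) and 0.63 ± 0.15 (SD, n = 3), and KO was 69.9% of WT (95% interval 54.0% to 90.5%). The log2 difference of -0.52 ± 0.16 (SE) had p = 0.0135 and an adjusted p of 0.319 by limma, with an exact permutation p of 0.1. The unadjusted p was 0.104 with median centring and 0.0504 without KO replicate 1 (log2 differences -0.35 and -0.45, limma).

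The dimmer Crhr1 probe (A_55_P1997609) gave -1.75, -2.15 and -1.95 in WT and -3.52, -2.87 and -2.65 in KO. Here too the groups did not overlap, and KO replicate 1 was the lowest array on both probes. Fitted over all probes that passed the filter, its log2 difference was -1.07 ± 0.25 (SE; limma adjusted p = 0.267; exact permutation p = 0.1), against -0.52 ± 0.16 for the brighter probe in the same fit. The dimmer probe's difference was smaller, at -0.43, with normexp on the median spot signal and -0.30 in the value table of the authors, where the brighter gave -0.41 and -0.44. These settings change more than the background, and the cause was not tested. Its spot brightness was 2.64 to 4.17 times the local background, against 11.7 to 21.6 times for the brighter probe. Which exons the 2 probes cover is not stated in the files.

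The receptors were also compared within rows of the slide, since both groups had 2 arrays in row 1 and 1 array in row 2. Avpr1b differed by -0.54 in row 1 and -0.67 in row 2. Crhr1 differed by -0.56 in row 1 and -0.43 in row 2. Both receptors thus read lower in KO in either row. With the row as a block the unadjusted p was 0.00412 for Avpr1b and 0.0225 for Crhr1 (limma; adjusted p = 0.330 and 0.413).

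**Figure D2:**
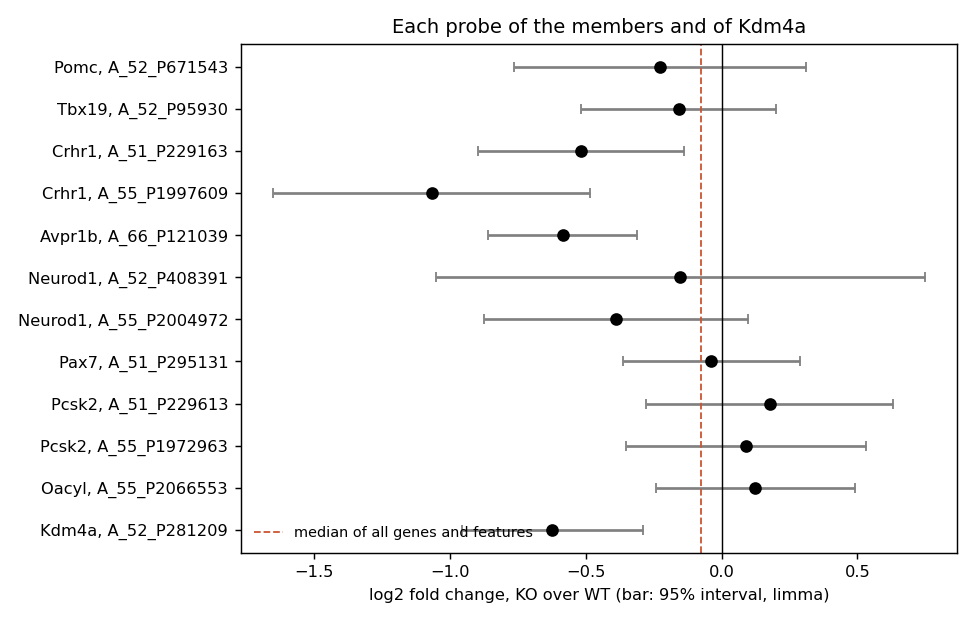
Log2 fold change of KO over WT (x axis) with its 95% interval from limma for the 11 member probes and the brighter Kdm4a probe, with a dashed line at the median of all genes and features (-0.076). The intervals of Avpr1b, both Crhr1 probes and Kdm4a lie below 0, and those of the other 8 probes include 0.

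Pomc, the prohormone gene, had levels of 9.46, 8.61 and 9.13 in WT and 8.90, 8.93 and 8.69 in KO (probe A_52_P671543). The KO values lay inside the WT range, whose ends were WT replicate 1 at the top and WT replicate 2 at the bottom. The means were 9.07 ± 0.43 (SD, n = 3) and 8.84 ± 0.13 (SD, n = 3). The log2 difference of -0.23 ± 0.22 (SE) was smaller than the WT spread (limma adjusted p = 0.654; exact permutation p = 0.5), and KO was 85.4% of WT with a 95% interval of 59.1% to 123%. The interval is wide, and a Pomc difference of the size read for the receptors lies inside it.

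The Pomc value followed the scaling of the arrays. Before scaling, the Pomc spot read 120646, 122096 and 108401 intensity units in WT and 118345, 114187 and 125879 in KO. The highest array exceeded the lowest 1.16-fold, while the 75th percentile differed 1.83-fold between arrays and was higher in KO by 0.26 on the log2 scale. Before scaling, Pomc differed between the groups by 0.030 on the log2 scale (KO minus WT; SD 0.095 in WT and 0.071 in KO, n = 3; exact permutation p = 0.7). The sign of its difference turned with quantile normalization (0.021) and in the authors' value table (0.089). Without WT replicate 2, the array with the highest 75th percentile, it was -0.46 ± 0.16 (SE; unadjusted p = 0.0303, adjusted p = 0.208, limma), and without WT replicate 1 it was -0.031 ± 0.20. Within the slide it was -0.50 in row 1 and 0.32 in row 2.

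Other very bright probes had the same narrow spread before scaling. Across the 16 tested probes with a mean over 100000 intensity units, the highest array exceeded the lowest by a median of 1.26-fold and at most 1.54-fold, against a median of 2.12-fold over all 36735 probes tested with a value on every array. The hormone genes Gh and Prl were among the 16. By root mean square distance between log2 values centred on their mean over the 6 arrays, the 3 genes with a symbol most like Pomc were Gh (0.028), Olfr544 (0.032) and Prl (0.033), where Pomc itself had a root mean square size of 0.28. Gh, for example, gave 9.99, 9.12 and 9.71 in WT and 9.47, 9.44 and 9.25 in KO, with the same WT arrays highest and lowest. Whether limited response of the brightest spots has a part in the Pomc value was not tested.

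**Figure D3:**
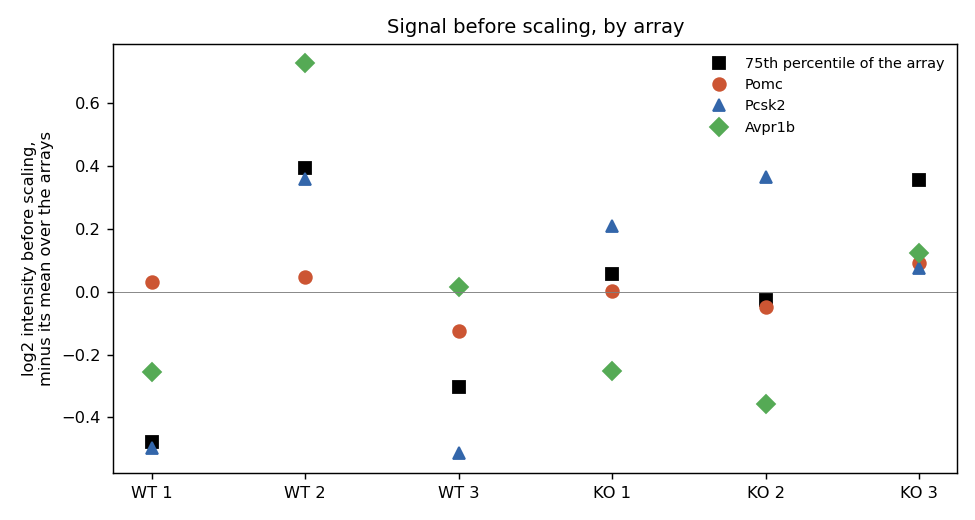
Log2 intensity before scaling, less its mean over the arrays (y axis), on each of the 6 arrays (x axis) for the 75th percentile of the array (black squares), Pomc (red circles), the brighter Pcsk2 probe (blue triangles) and Avpr1b (green diamonds). Pomc stayed near 0 on every array, with a highest array 1.16-fold above the lowest, while the 75th percentile differed 1.83-fold.

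The transcription factor genes gave no separation. Tbx19, the T-box factor required for Pomc transcription, read -0.83, -1.20 and -1.03 in WT and -1.28, -1.25 and -1.01 in KO (probe A_52_P95930). One KO array lay within the WT range and the other two just below it. The log2 difference was -0.16 ± 0.15 (SE; adjusted p = 0.637, limma; exact permutation p = 0.3), with KO at 89.6% of WT (95% interval 70.3% to 114%). It was 0.0037 with median centring, which moved the median of all genes and features by 0.16, and -0.034 in the authors' value table.

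Neurod1, a bHLH factor that partners Tbx19 in corticotropes, was close to background, its spots being 1.22 to 2.32 times as bright as the local background over both probes. The brighter probe (A_55_P2004972) gave -2.85, -3.17 and -2.77 in WT and -3.45, -2.94 and -3.56 in KO. KO replicates 1 and 3 lay below all WT arrays and KO replicate 2 among them. The log2 difference was -0.39 ± 0.20 (SE; adjusted p = 0.445, limma; exact permutation p = 0.2), and -0.15 ± 0.38 by the dimmer probe (A_52_P408391). It was -0.70 ± 0.16 in slide row 1 alone (unadjusted p = 0.00760, adjusted p = 0.327, limma) and 0.23 between the single arrays of row 2. Without KO replicate 2 it was -0.58 ± 0.18 (unadjusted p = 0.0198, adjusted p = 0.611, limma). It was -0.18 with quantile normalization, -0.19 with normexp, -0.23 with median centring and -0.27 without KO replicate 3.

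Pax7, the selector of melanotrope fate, read -0.27, -0.49 and -0.44 in WT and -0.37, -0.34 and -0.60 in KO (probe A_51_P295131). The groups overlapped fully apart from the top and bottom array. The log2 difference was -0.037 ± 0.13 (SE; adjusted p = 0.912, limma; exact permutation p = 0.7), with KO at 97.4% of WT and a 95% interval of 78.2% to 121%. Its sign was kept in 14 of 18 alternatives.

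The melanotrope enzyme genes were likewise not separated. Pcsk2, the convertase that cuts ACTH on towards alpha-MSH, gave 5.71, 5.70 and 5.52 in WT and 5.88, 6.12 and 5.45 in KO by its brighter probe (A_51_P229613), and 2.15, 2.51 and 2.43 against 2.63, 2.60 and 2.13 by the other (A_55_P1972963). On both probes KO replicates 1 and 2 were above all WT arrays and KO replicate 3 below them. The log2 differences were 0.18 ± 0.19 and 0.089 ± 0.19 (SE; adjusted p = 0.677 in the fit over genes and 0.842 in the fit over probes, limma). The interval for the brighter probe runs from 82.8% to 154% of WT. Its difference was 0.025 without KO replicate 2, 0.36 without KO replicate 3 and 0.38 with quantile normalization.

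Oacyl, an acyltransferase-like gene used as a melanotrope marker in the mouse, gave 2.51, 2.27 and 2.30 in WT and 2.45, 2.71 and 2.30 in KO (probe A_55_P2066553). KO replicate 2 was the highest of the 6 arrays, and the other two KO arrays lay within the WT range. The log2 difference was 0.12 ± 0.15 (SE; adjusted p = 0.714, limma; exact permutation p = 0.5), with KO at 109% of WT (95% interval 84.9% to 140%). It was -0.032 in slide row 1 alone. Drd2, the dopamine receptor gene that completes the melanotrope marker list, read -0.16, -0.40 and -0.32 in WT and 0.033, 0.017 and -0.0013 in KO. All KO arrays were above all WT arrays, by 0.31 ± 0.12 (SE; unadjusted p = 0.0359, adjusted p = 0.368, limma). The unadjusted p was under 0.05 in 10 of 18 alternatives (0.25 to 0.47).

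**Figure D4:**
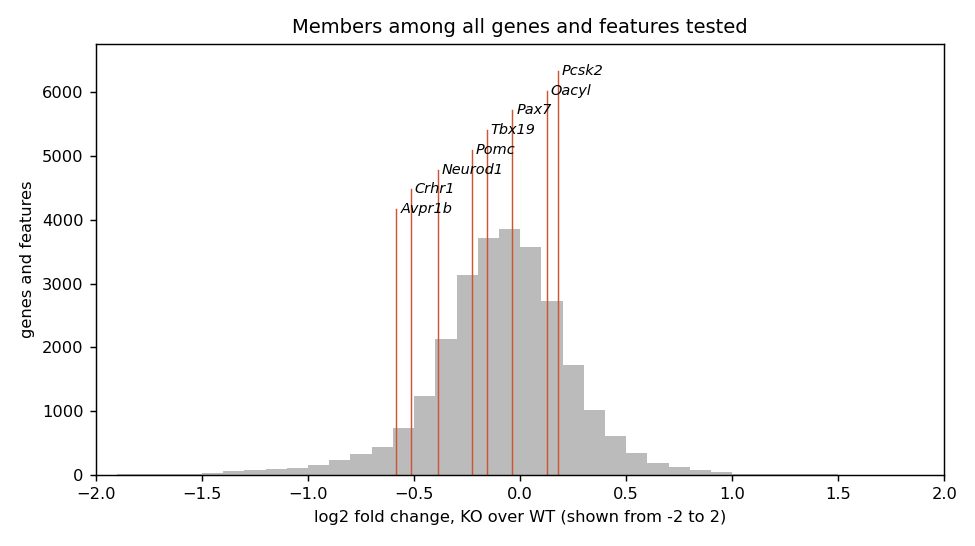
Number of genes and features (y axis) by log2 fold change of KO over WT (x axis, bins of 0.1, shown from -2 to 2), with the 8 members as red lines. The members lie between -0.58 (Avpr1b) and 0.18 (Pcsk2), and 6.26% of all genes and features had a fold change at or below that of Avpr1b.

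Genes around the members in the same pathway were read from 5 further lists. Of all genes and features, 60.6% had a log2 fold change at or below -0.0024. Their median was -0.076 as reported and 0.086 with median centring. Of the 12 genes of POMC processing and the granule (Pcsk2 among them), 10 were above 0, with a median of 0.18 and 2 higher at an unadjusted p under 0.05 (background 3.89% higher), namely Pcsk1n, the proSAAS precursor that inhibits Pcsk1, and Scg5, the 7B2 chaperone of Pcsk2. Scg5 read 7.12, 7.13 and 6.91 in WT and 7.38, 7.40 and 7.38 in KO, a log2 difference of 0.34 ± 0.12 (SE; adjusted p = 0.352, limma). Its KO arrays lay within a narrow band above all WT arrays. Pcsk1n read 6.67, 6.73 and 6.72 in WT and 7.09, 7.20 and 7.25 in KO, a log2 difference of 0.47 ± 0.11 (SE; adjusted p = 0.260, limma). Chga, a granin, was at 0.28 ± 0.13 and the protease gene Ctsl at 0.21 ± 0.12, both at an unadjusted p over 0.05. The number higher at that threshold ran from 1 to 7 over the 18 alternatives and the number lower was 0 in each of them. There were 7 higher with the authors' values, 6 with quantile normalization and 5 with normexp. There were 4 with median centring or without WT replicate 1. There was 1 with the replicate block, without WT replicate 3 or without any 1 of the KO arrays. The background share quoted for each list is that of the reported scaling, and it also moved with the scaling. Of 26886 genes and features, 1045 were higher as reported, 1096 with normexp, 1817 with quantile normalization and 2692 with median centring. With the authors' values 1587 of 20832 were higher.

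Of the 14 receptor genes tested, 2 were lower at an unadjusted p under 0.05 (background 8.93%) and 3 higher (background 3.89%), with a median of -0.027. The lower pair were Avpr1b and Crhr1. The higher ones were Il6ra, the IL-6 receptor (0.40 ± 0.14), Lifr, the LIF receptor (0.40 ± 0.15), and Drd2, with adjusted p from 0.347 to 0.368 (limma). Il6ra and Lifr bind cytokines that raise Pomc transcription. Lifr read 0.53, 1.01 and 0.86 in WT and 1.16, 1.21 and 1.25 in KO, and Il6ra read 2.06, 2.20 and 2.02 against 2.29, 2.53 and 2.66. In both the KO arrays were above the WT arrays. Il6st, the signalling subunit shared by the IL-6 and LIF receptors, was at 0.0025 ± 0.19 (SE). The number of receptor genes higher was 0 without WT replicate 3, without KO replicate 2 or without KO replicate 3, and 1 when WT replicate 1 or KO replicate 1 was dropped or in slide row 1 alone.

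Of the 17 transcription factor and cell cycle genes tested, 2 were lower at an unadjusted p under 0.05 (background 8.93%) and 0 higher, with a median of -0.011. The lower ones were the Notch target Hes1 (-0.67 ± 0.21) and the LIM factor Isl1 (-0.53 ± 0.17). With median centring 0 were lower and 1 higher, and with the authors' values 2 were lower and 2 higher. There was 1 lower with normexp or quantile normalization, or without WT replicate 1, WT replicate 3 or KO replicate 1. Hes1 ran from -0.80 to -0.15 over the 18 alternatives. It was dim, at -2.15, -2.82 and -2.86 in WT and -3.38, -3.24 and -3.23 in KO. Isl1 read -0.64, -1.04 and -0.65 in WT and -1.55, -1.17 and -1.20 in KO. The pituitary LIM factor Lhx3 was at 0.28 ± 0.14 and the tumour suppressor gene Rb1 at -0.29 ± 0.14, both over that threshold. Among 24 genes of cyclic AMP, calcium and MAP kinase signalling, 1 was lower, Arrb2, the beta-arrestin that desensitises receptors (-0.47 ± 0.17), and 1 higher, the adenylyl cyclase Adcy3 (0.63 ± 0.26), with a median of 0.076. Of all genes and features, 8.93% were lower and 3.89% higher, so these counts are near or below the background. Adcy3 had an unadjusted p under 0.05 in 8 of 18 alternatives (0.15 to 0.87) and Arrb2 in 12 (-0.71 to -0.31). Adcy3 was also dim, at -2.95, -3.72 and -2.72 in WT and -2.66, -2.46 and -2.39 in KO. With the replicate block, or without WT replicate 1, KO replicate 1 or KO replicate 3, the list had 0 lower and 0 higher, and in any other alternative at most 2 lower and 3 higher. Crem, a cAMP-responsive modulator, was at 0.48 ± 0.25 and the protein kinase A subunit Prkar2b at -0.23 ± 0.13, neither at an unadjusted p under 0.05 by limma. Adjusted p was 0.327 or more for each gene of both lists.

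Of the 11 genes tested for glucocorticoid feedback, through which corticosterone restrains these cells, 2 were lower and 2 higher at an unadjusted p under 0.05 (background 8.93% and 3.89%; median 0.11). The number higher was 0 without KO replicate 2, without KO replicate 3 or in slide row 1 alone, 1 without any 1 of the WT arrays and 3 with median centring, and the number lower was 1 or 2 in every alternative. Lower were the phosphatase gene Dusp1 (-2.31 ± 0.29) and the annexin gene Anxa1 (-0.38 ± 0.14). Higher were Fkbp5, a co-chaperone of the receptor (0.38 ± 0.13), and the clock gene Per1 (0.93 ± 0.33). Their adjusted p ran from 0.123 to 0.361 (limma). Over the 71 tested genes of the 5 lists that are not members, 18.3% had an unadjusted p under 0.05, 5 lower and 8 higher, against the background of 12.8%, and 0 passed the adjusted threshold. As the lists were chosen with earlier results of these data known, their share cannot be read as a test against the background. Each gene named from the 5 lists outside the members, except Il6st, whose sign was not followed, kept its sign in 18 of 18 alternatives. Of these genes Dusp1 alone passed an adjusted p under 0.05 by limma in any of them, in 4 (normexp, median centring, the authors' value table, and a variance trend with robust fitting; -2.50 to -1.96 over all 18).

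Genes whose pattern over the 6 arrays was most like that of Avpr1b were Gng7, a G protein gamma subunit (distance 0.045), the receptor phosphatase gene Ptprz1 (0.047) and Ehbp1 (0.048), where Avpr1b had a root mean square size of 0.30. Gng7 read -0.51, -0.38 and -0.43 in WT and -1.15, -1.08 and -0.93 in KO. Most like Pcsk2 were Cdkl3 (0.071), Olfr629 (0.078) and Dlk1 (0.078), with a size of 0.22 for Pcsk2. The candidates were 16459 genes with a symbol, and no test was made of these distances.

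In whole glands, fewer corticotropes and less receptor RNA per corticotrope cannot be told apart. Summed on the linear scale, the 4 corticotrope markers (Pomc, Tbx19, Crhr1 and Avpr1b) ran from 394 to 709 times the 75th percentile in WT and from 416 to 490 in KO, nearly all of it Pomc. All 4 were below 0, as were most genes and features (60.6% of all lay at or below -0.0024). Avpr1b and Crhr1, already counted above, were the 2 at an unadjusted p under 0.05 by limma (background 8.93% lower). Pomc was above 0 with quantile normalization and in the authors' value table, and Tbx19 with median centring. The 6 melanotrope markers (Pomc, Tbx19, Pax7, Pcsk2, Oacyl and Drd2) summed to 449 to 765 in WT and 464 to 566 in KO, with 3 below and 3 above 0, and with 1 below and 5 above after median centring or in the authors' value table.

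Some markers of other cell types also read lower in KO. So did most genes and features with the scaling reported, as 60.6% of all lay at or below -0.0024. By limma, 8.93% of all were lower at an unadjusted p under 0.05. Of 5 fibroblast markers 5 were below 0 (4 with quantile normalization, median centring or the authors' value table, where Col1a2 turned) and 3 lower at an unadjusted p under 0.05 (Col1a1, a collagen chain, -0.83 ± 0.23; Dcn, decorin, -0.52 ± 0.17; Pdgfra -0.43 ± 0.15). With median centring 1 was lower, and Dcn had an unadjusted p under 0.05 in 14 of 18 alternatives and Pdgfra in 11. The list, most of whose signal was Col1a2 (-0.078), summed to 90.0 to 121 in WT and 72.3 to 107 in KO. Of 9 posterior lobe markers 7 were below 0 (6 with quantile normalization or median centring, where Nkx2-1 turned), with Avp, the vasopressin gene, at -1.21 ± 0.35 (1.03, -0.32 and 0.88 in WT and -0.81, -0.69 and -0.52 in KO) and Rax, a pituicyte factor, at 0.53 ± 0.17. The posterior lobe list summed to 16.2 to 20.2 in WT and 15.3 to 17.9 in KO, but most of that was Oxt, the oxytocin gene (0.031), so the sum says little of the other 8. Among hormone cells, Dio2, a deiodinase gene on the thyrotrope list, was at -0.54 ± 0.14 and Ghrhr, the GHRH receptor of somatotropes, at -0.40 ± 0.15 (unadjusted p = 0.00530 and 0.0321, adjusted p = 0.276 and 0.361, limma), both with all KO arrays below all WT arrays. These differences are of about the size of those of Avpr1b and Crhr1, and with median centring 0 markers of either list had an unadjusted p under 0.05. The rest of the 2 lists went both ways. On the thyrotrope list Trhr was at -0.38 ± 0.20 and Tshb at 0.14 ± 0.14. On the somatotrope list Gh was at -0.22 ± 0.23 and Ghsr at 0.22 ± 0.12, with all KO arrays of Ghsr above all WT arrays. The thyrotrope list summed to 74.6 to 86.6 in WT and 74.1 to 93.8 in KO. Of 7 stem and folliculostellate markers 7 were below 0 (3 with median centring) and 0 had an unadjusted p under 0.05 by limma, with sums of 40.5 to 59.7 in WT and 41.1 to 43.3 in KO. The erythroid sum was 511 in KO replicate 1 and 162 in KO replicate 2, against 288 to 406 in WT. Of 5 neutrophil markers 5 were below 0, and their sum was 14.2 in WT replicate 3 while WT replicates 1 and 2 had 2.38 and 1.94 and the KO arrays 1.21 to 1.73. Of 5 Schwann cell markers 4 were below 0. Their sum was also highest in WT replicate 3, at 19.8, against 11.4 and 13.7 in WT replicates 1 and 2 and 12.5 to 13.5 in KO. Without WT replicate 3 Avpr1b was -0.57 ± 0.13 and Crhr1 -0.59 ± 0.17 (SE; unadjusted p = 0.00463 and 0.0158, adjusted p = 0.244 and 0.307, limma). The part of these markers in the receptor values was not tested.

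**Figure D5:**
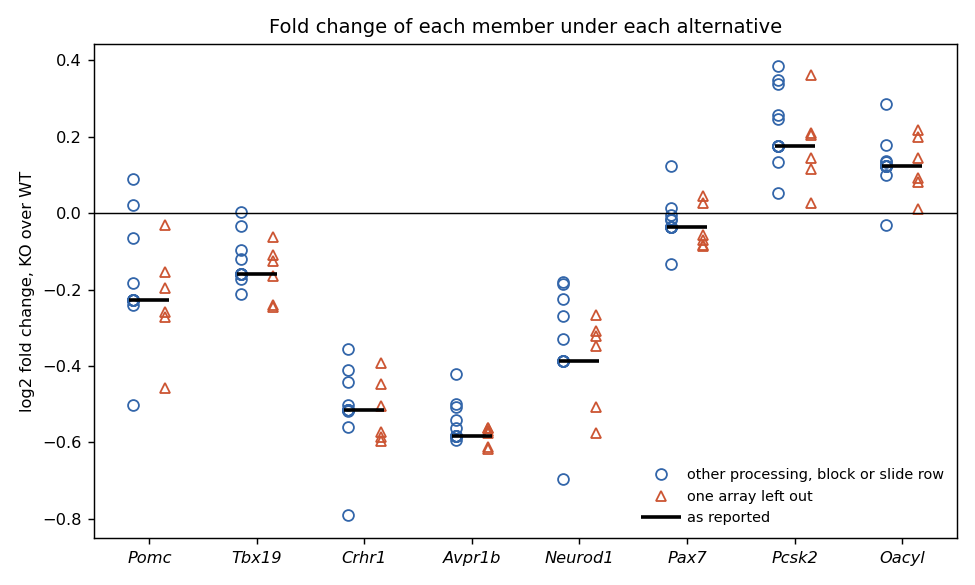
Log2 fold change of KO over WT (y axis) for each member (x axis) as reported (black bar), with another processing, block or slide row (blue circles) and with 1 array left out (red triangles). All values of Avpr1b (-0.62 to -0.42) and Crhr1 (-0.79 to -0.35) lie below 0, while those of Pomc run from -0.50 to 0.089.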

How the data were processed

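Pituitary RNA of 6 mice was hybridised to one-colour Agilent arrays. The deposited spot files hold intensity values, the processed signal of Agilent Feature Extraction 11.0.1.1 per the file headers. The authors also deposited log2 values of 29154 spots, with medians of 8.25 to 8.26 and a correlation of at least 0.997 with the log2 median spot signal of each array. Limma is named in the submitters' processing notes, without a version. The sources used here do not give the normalization or filter.

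Control and outlier spots were left out. Spot values, as log2 of the processed signal, were averaged by probe and reduced by the array's 75th percentile. Of 55681 probes, 36739 were well above background in 3 or more glands and were used, taking the brightest per gene. Accessions were named through RefSeq (GRCm38.p6), which gave 27656 probes 20972 symbols. KO and WT were compared with limma 3.58.1 in R 4.3.3 (lmFit, eBayes, two-sided), adjusted by Benjamini-Hochberg over 26886 genes and features at 0.05, and single members by exact permutation. The steps were tested on simulated data.

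The members and lists were chosen with earlier results of these data known. Named are all members, Kdm4a, up to 4 genes per list with the smallest p, the 3 genes most like Pomc, Avpr1b and Pcsk2, and markers whose list moved with the groups or with 1 array. Drd2 and Il6st were named after their values were seen. Alternatives were normexp (offset 50, on the median spot signal), quantile normalization, centring on the median, the values the authors deposited, no filter or a stricter one, averaging a gene's probes, a robust fit with a variance trend, weights per array, the replicate number or the slide row as a block, the first slide row by itself, stricter or looser thresholds, and leaving out each array.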

Additional observations from a re-analysis of the deposited data

How the results depend on the processing

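Over 18 alternatives the sign was kept in 18 for Avpr1b, Crhr1 and Pcsk2, in 17 of 17 for Neurod1, which the authors' value table leaves out, in 17 for Tbx19 and Oacyl, in 16 for Pomc and in 14 for Pax7, and 0 members passed an adjusted p under 0.05 in any. Values turned with quantile normalization (Pomc 0.021), median centring (Tbx19 0.0037, Pax7 0.12), the authors' value table (Pomc 0.089, Pax7 0.013), and slide row 1 alone (Oacyl -0.032). With an array left out, Pax7 ran from -0.087 to 0.046 (0.028 without WT replicate 1, 0.046 when KO replicate 3 was dropped). The cause was not tested. Members at an unadjusted p under 0.05 were 2, but 1 with median centring, 3 in slide row 1 alone, and 1 at a threshold of 0.01, and from 1 to 3 with an array left out. All genes at that threshold were 3445, from 1963 to 5508 with an array left out (5508 without WT replicate 2, and in KO 2156 without replicate 2 and 1963 without replicate 3), and 864 at 0.01. At an adjusted p under 0.05 there were 0 genes, with 24 by normexp, 16 by median centring, 27 in the authors' value table, 27 with a variance trend and robust fitting, 11 where all arrays had to be above background, 0 to 1 with an array left out, and 15 at an adjusted 0.1. Deviations of same-numbered KO and WT arrays from their group means had correlations of 0.15, -0.18 and -0.083. With 3 arrays a group these cannot show whether the numbers pair the animals. With the replicate block 2 members and 2865 genes were at an unadjusted p under 0.05, and 0 at the adjusted threshold (Avpr1b adjusted p = 0.429, Crhr1 adjusted p = 0.456, limma). Kdm4a stayed between -0.68 and -0.46. Among the member probes, signal over background limits the dim Neurod1 and Crhr1 probes most.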
